A study of Homo sapiens with 12 samples.

Results

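The genes described here encode alpha, beta and gamma tubulin, and were chosen as 10 named transcripts. For alpha tubulin these were TUBA1A, TUBA1B (ENST00000336023) and TUBA1C (ENST00000301072). For beta tubulin they were TUBB (ENST00000327892), TUBB2A (ENST00000333628), TUBB2B (ENST00000259818), TUBB3 (ENST00000315491), TUBB4B (ENST00000340384) and TUBB6 (ENST00000317702). For gamma tubulin it was TUBG1 (ENST00000251413). TUBA1A was not analysed here. The other 9 transcripts were part of a table of 18338 transcripts, and 8 of the 9 were listed in all 12 libraries. The members were chosen by gene family and not by a threshold on a measured value, though with earlier results of these data known.

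HEK293T, a transformed cell line derived from human embryonic kidney and of wild-type genotype in the labels, was exposed to GSK-A1, an inhibitor of the lipid kinase PI4KA, which makes phosphatidylinositol 4-phosphate at the plasma membrane. Ribosome-protected fragments (RPF, or footprints) and mRNA were sequenced at 0, 60 and 360 min, with 2 replicates for each assay and time. The labels name GSK-A1 as the treatment of all 12 libraries, so the 0 min group is a reference by its time alone. Nothing in the labels says that the replicates were separate cultures, so the p-values measure the spread between these libraries, which may be technical. Totals ran from 429026 to 1165740 counts, and levels are given as CPM, counts scaled to the same effective total in each library.

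Alpha and beta tubulin form the heterodimer that polymerises into microtubules, and gamma tubulin, within its ring complex, starts new microtubules at the centrosome. Cells adjust alpha and beta tubulin to the pool of free dimer: when free dimer is in excess, mRNAs that are being translated are recognised through the first amino acids of the nascent chain and degraded. Because that control acts on mRNA at the ribosome, footprints and mRNA of the family are of interest side by side.

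No member passed an adjusted p of 0.05 between any 2 times in footprints, in mRNA or in their ratio, and 0% of all transcripts tested did. TUBA1B, TUBB4B and TUBA1C had 2.93-fold, 2.21-fold and 2.06-fold lower footprint than mRNA levels over the 12 libraries, each past the threshold. That is 3 of 7 members, where 41.1% of all transcripts passed in either direction and 16.4% with fewer footprints. TUBB, TUBB2B, TUBB6 and TUBG1 did not pass in that comparison.

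**Figure D1:**
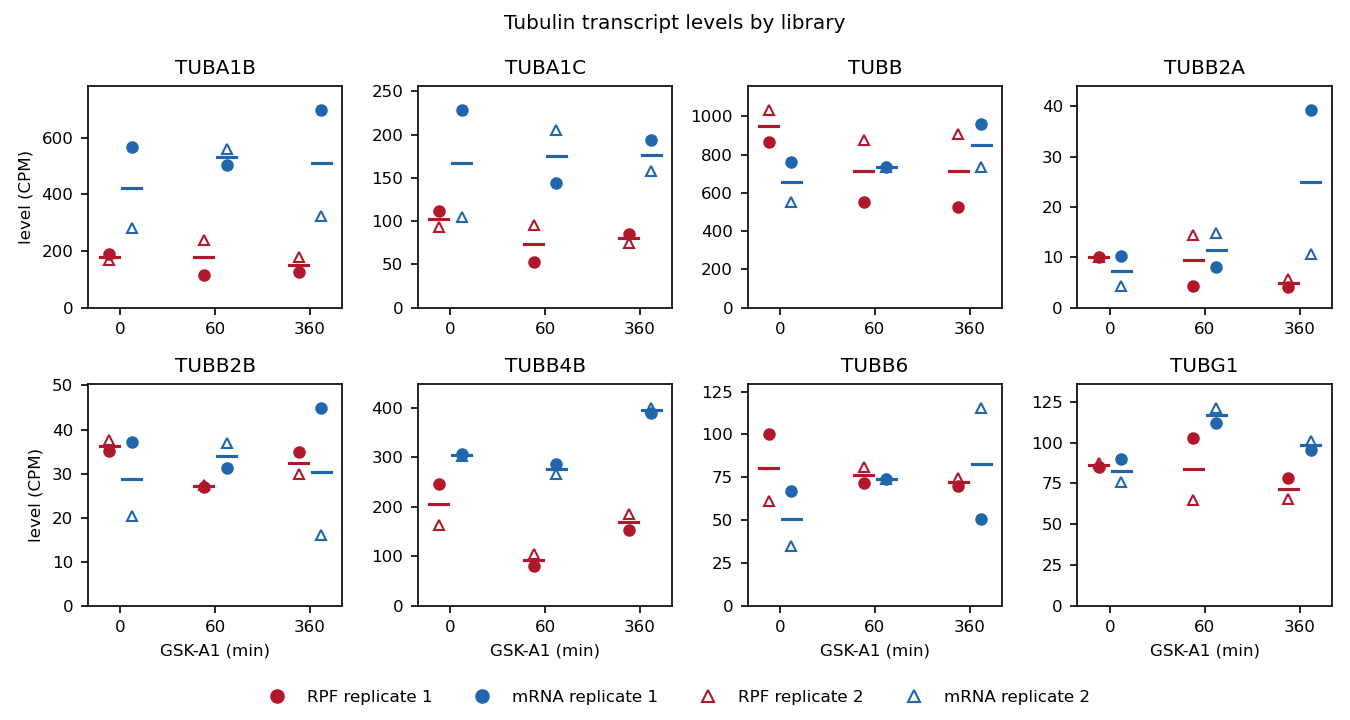
Level in CPM (linear axis from 0) of 8 tubulin transcripts in each library at 0, 60 and 360 min of GSK-A1. Red marks footprints, blue mRNA, circles replicate 1, triangles replicate 2 and bars the mean of 2. The red points of TUBA1B and TUBB4B all lie below the blue ones, and the 60 min footprints of TUBB4B, at 80.1 and 104 CPM, are its lowest.

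TUBA1B encodes an alpha tubulin made in most tissues. Its footprint level was 189 and 168 CPM at 0 min, 115 and 240 at 60 min, and 124 and 179 at 360 min (replicates 1 and 2). Its mRNA level was 567 and 281 CPM at 0 min, 504 and 559 at 60 min, and 699 and 325 at 360 min. The later times overlapped 0 min in both assays, and every footprint value lay below every mRNA value. The log2 change in footprints came to -0.02 at 60 min (SE 0.416) and to -0.24 at 360 min (SE 0.421). In mRNA it was 0.32 (SE 0.536) and 0.27 (SE 0.538). Leaving out the first 60 min RPF replicate gave a footprint change of 0.42 at 60 min, and leaving out the second gave -0.62.

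TUBA1C, another alpha tubulin of dividing cells, had 112 and 93.0 CPM of footprints at 0 min, 53.0 and 95.2 at 60 min, and 85.3 and 74.8 at 360 min. Its mRNA stood at 229 and 105 CPM, then 144 and 205 CPM, then 194 and 158 CPM. Both 360 min footprint values were below both 0 min values, and in mRNA the times overlapped. The footprint log2 change was -0.48 (95% interval -1.29 to 0.33) at 60 min and -0.35 (-1.17 to 0.46) at 360 min.

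TUBA1B and TUBA1C have nearly the same coding sequence, and how reads that match several transcripts were assigned is not given in the sources used here. Their counts were therefore also summed. The 2 alpha members together had 281 ± 27.8 CPM of footprints (SD, n = 2) at 0 min, 251 ± 118 at 60 min and 232 ± 31.5 at 360 min. Their summed mRNA was 591 ± 289, 706 ± 82.2 and 688 ± 289 CPM. The 360 min footprint sums, 210 and 254 CPM, lay below those of 0 min, 301 and 261 CPM, and the times overlapped in the other comparisons of these sums with 0 min. The sums were not tested.

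TUBB encodes the beta tubulin that is the main form in many dividing cells. Its footprints stood at 868 and 1034 CPM at 0 min, 550 and 874 at 60 min, and 524 and 907 at 360 min. The mRNA stood at 761 and 552 CPM, 734 and 736 CPM, and 962 and 737 CPM. Replicate 2 of each later time exceeded the first 0 min footprint replicate, so the groups overlapped in footprints. The footprint log2 change came to -0.42 at 60 min (SE 0.545) and to -0.41 at 360 min (SE 0.546). In mRNA it was 0.16 (SE 0.449) and 0.37 (SE 0.450).

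TUBB4B encodes a widely made beta tubulin that is also abundant in cilia. Its footprint level was 247 and 163 CPM at 0 min, 80.1 and 104 at 60 min, and 152 and 185 at 360 min. Its mRNA level was 306 and 303 CPM, 286 and 266 CPM, and 390 and 400 CPM. Both 60 min footprint values lay below the other 4 footprint values. The 360 min mRNA values were the highest. Those of 60 min lay below those of 0 min with TMM scaling (trimmed mean of M-values), but overlapped them with library totals alone (290 and 287 against 312 and 289 CPM).

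The footprint log2 change of TUBB4B at 60 min was -1.16 (SE 0.391, 95% interval -1.99 to -0.33), with an unadjusted p of 0.008738 and an adjusted p of 0.9994 in edgeR's quasi-likelihood test with Benjamini-Hochberg adjustment over 9653 transcripts. Of all transcripts tested there, 2.31% had an unadjusted p under 0.05. From 60 to 360 min its footprints differed by 0.88 (SE 0.395, 95% interval 0.04 to 1.71), with an unadjusted p of 0.04049 and an adjusted p of 0.6213 in the same edgeR test, where 7.8% of transcripts had an unadjusted p under 0.05. That p was under 0.05 in 4 of 11 alternative settings and reached 0.2628 without the first 60 min RPF replicate. Neither passed the adjustment. These 2 comparisons share the 60 min libraries. Over 11 alternative settings the value at 60 min against 0 min was negative in all and ran from -1.41 to -0.82. The unadjusted edgeR p was 0.1285 without the first 0 min RPF replicate and 0.1131 without the first 60 min one, and it was under 0.05 in 9 of the 11. The mRNA log2 change at 60 min was -0.14 (SE 0.395).

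TUBB6 is a beta tubulin found at low level in many cells and at higher level in regenerating muscle. It had 101 and 60.9 CPM of footprints at 0 min, 71.4 and 80.8 at 60 min, and 69.9 and 74.8 at 360 min. In mRNA it had 66.8 and 35.0 CPM, 73.9 and 74.0 CPM, and 50.5 and 115 CPM. Both 60 min mRNA values were above both 0 min values. The mRNA log2 change came to 0.53 at 60 min (SE 0.492) and to 0.72 at 360 min (SE 0.502). The 60 min value was 1.11 without the first 0 min mRNA replicate and 0.14 without the second. The 360 min value was 1.31 without the first 0 min replicate and 0.01 without the second 360 min one.

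TUBB2A and TUBB2B are close relatives best known from neurons, and their counts are uncertain for the same reason as those of TUBA1B and TUBA1C. TUBB2B had 35.0 and 37.7 CPM of footprints at 0 min, 27.0 and 27.4 at 60 min, and 35.0 and 29.9 at 360 min. Its mRNA was 37.3 and 20.4 CPM, 31.2 and 37.0 CPM, and 44.9 and 16.0 CPM. Its 2 footprint replicates at 60 min lay below the rest, with a log2 change of -0.41 (SE 0.420). TUBB2A had only 3 to 11 counts in a footprint library and 3 to 16 in an mRNA library. Its mRNA was 10.3 and 4.37 CPM at 0 min, 8.08 and 14.8 at 60 min, and 39.3 and 10.7 at 360 min. The 360 min log2 change of TUBB2A mRNA was 1.65 (SE 0.832, edgeR adjusted p 0.5839), and it was 0.53 without the first 360 min mRNA replicate, which holds 14 counts.

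TUBB3, the beta tubulin used as a marker of neurons, had 1 count in 1 of 6 footprint libraries. In mRNA it had 2 and 4 counts at 60 min and 1 count at 360 min, and it was at 0 in the other 3 libraries. A count of 0 allows up to 3 counts, which corresponds to 2.77 to 8.42 CPM in the 8 libraries without a count. No fold change was computed for it. These limits cover counting error only.

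TUBG1, the gamma tubulin of the centrosome, had 84.8 and 87.5 CPM of footprints at 0 min, 103 and 64.9 at 60 min, and 78.3 and 65.4 at 360 min. Its mRNA stood at 89.9 and 75.7 CPM, 112 and 121 CPM, and 95.4 and 101 CPM. The mRNA values of both later times lay above those of 0 min, with log2 changes of 0.49 (SE 0.361) and 0.25 (SE 0.370). With library totals alone, 360 min (79.2 and 96.1 CPM) overlapped 0 min (91.9 and 72.2 CPM). Both 360 min footprint values lay below both 0 min values, with a log2 change of -0.26 (SE 0.378).

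Over the family, 7 members passed the filter on low counts in footprints and 8 in mRNA. No member passed in footprints at 60 min, nor did any transcript in the table (0%), and the same held at 360 min (0%) and between 60 and 360 min (0%). In mRNA the share of all transcripts that passed was also 0% at 60 min, 0% at 360 min and 0% between the 2 later times. These are edgeR results. DESeq2's Wald test passed 0 members as well, but gave no adjusted p for some members in mRNA. These were TUBB2A and TUBB2B at 360 min against both earlier times, and TUBB6 at 360 min against 0 min. By unadjusted p, 1 of 7 members was under 0.05 in footprints at 60 min, 0 of 7 at 360 min (3.91% of all transcripts) and 1 of 7 between the later times, TUBB4B in both. In mRNA 0 of 8 were under 0.05 in each of the 3 comparisons, where 1.37%, 8.92% and 10.3% of all transcripts were.

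The direction of the values was as follows. In footprints all 7 members had a log2 change below 0 at 60 min (median -0.41, against -0.01 over all transcripts, 51% of which were below 0). At 360 min the 7 were again below 0 (median -0.26, against 0.02 over all, 47.9% below 0). In mRNA 1 of 8 was below 0 at 60 min (median 0.28, against -0.02 and 51.7%) and 0 of 8 at 360 min (median 0.32, against -0.03 and 51.8%). From 60 to 360 min 3 of 7 members were below 0 in footprints, against 46.9% of all, and 3 of 8 in mRNA, against 52.3%. The 60 and 360 min comparisons use the same 0 min libraries, and members of one library share its depth and scaling, so these are not separate observations. At 0 min the second mRNA replicate was below the first for all 8 members.

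Counts of members whose replicates did not overlap can be read against the same share over all transcripts. In footprints at 60 min 2 of 7 members lay below 0 min without overlap (TUBB2B and TUBB4B), against 16% of all transcripts, and at 360 min 3 of 7 did (TUBA1C, TUBB2B and TUBG1), against 13.8%. From 60 to 360 min 2 of 7 members lay higher (TUBB2B and TUBB4B), against 17.5%, and 0 lower, against 18%. In mRNA at 60 min 2 of 8 lay higher (TUBB6 and TUBG1), against 13.4%, and 1 of 8 lower (TUBB4B), against 12.3%. At 360 min 3 of 8 mRNA members lay above 0 min (TUBB2A, TUBB4B and TUBG1), against 19.8%. From 60 to 360 min 2 lay higher (TUBB and TUBB4B), against 20.7%, and TUBG1 lower, against 19.6%. These counts depend on the scaling. With library totals alone the footprint counts below 0 min were 3 of 7 at 60 min, with TUBA1C added (18.4% of all transcripts), and 4 of 7 at 360 min, with TUBA1B added (20.6%). From 60 to 360 min TUBB2B and TUBB4B were again higher (12.9%), and TUBG1 was lower (22.5%). In mRNA TUBB4B no longer lay below 0 min at 60 min, and it was the one member above 0 min at 360 min (14%) and above 60 min at 360 min (13.2%). With so few members these counts do not set the family apart.

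Summed over the 9 members, footprints were 1646 and 1654 CPM at 0 min, 1003 and 1502 at 60 min, and 1074 and 1522 at 360 min. Both 0 min libraries were above the 4 later ones, and the later replicates were far apart. With library totals alone the groups overlapped, with 1531 and 1840 CPM at 0 min and 1588 in the second 60 min replicate. The 6 beta members carried most of these counts, with 1283 ± 31.8 CPM (SD, n = 2) at 0 min, 917 ± 262 at 60 min and 994 ± 294 at 360 min. The summed mRNA was 2066 and 1376 CPM at 0 min, 1896 and 2018 at 60 min, and 2475 and 1865 at 360 min, and there the times overlapped.

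Translational efficiency (TE), the change in footprints relative to the change in mRNA, was tested in one fit of all 12 libraries. Of 7 members, 0 passed the adjusted threshold at 60 min (0% of 8632 transcripts did), 0 at 360 min (0%) and 0 between the later times (0%). None had an unadjusted p under 0.05 in the edgeR quasi-likelihood test, against 1.75%, 5.66% and 4.69% of all transcripts. All 7 members had a TE log2 change below 0 at 60 min, from -1.01 for TUBB4B to -0.33 for TUBA1B (median -0.57, against 0.02 over all transcripts, 48.8% of which were below 0). At 360 min the 7 values ran from -0.92 for TUBB6 to -0.21 for TUBB2B (median -0.57, against 0.01 and 49.4%). From 60 to 360 min 4 of 7 were below 0 (median -0.04), against 48.6%.

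TUBB4B had a TE log2 change of -1.01 (SE 0.524, 95% interval -2.13 to 0.11) at 60 min and -0.70 (SE 0.523, -1.82 to 0.42) at 360 min. For TUBB the values were -0.57 (SE 0.681) and -0.84 (SE 0.683). Both stayed below 0 at both times in each of 20 alternative settings, as did TUBB6 and TUBG1. TUBA1B did not: at 360 min it was 0.34 when both 360 min libraries numbered replicate 1 were left out. TUBB2B at 360 min was below 0 in 14 of 19 settings and TUBA1C in 19 of 20. The intervals include 0 for all 7 members at both times.

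**Figure D2:**
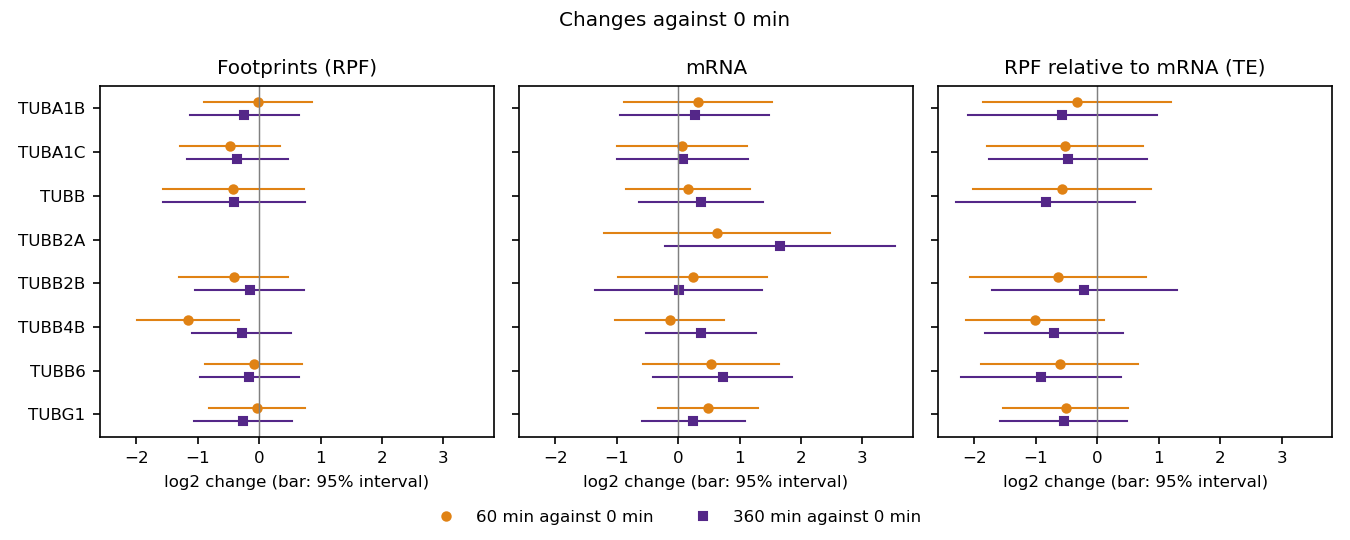
Log2 change against 0 min at 60 min (orange circles) and 360 min (purple squares) for footprints, mRNA and footprints relative to mRNA, with 95% intervals from the fits across all transcripts. TUBB2A was tested in mRNA alone. The 60 min footprint interval of TUBB4B, -1.99 to -0.33, is the one that does not include 0, and it did not pass after adjustment.

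The footprint level was then compared with the mRNA level of the same transcript, as the mean over the 3 times. This comparison was added after the values were seen. Each assay was scaled to its own totals, so a log2 ratio of 0 means the same share of each assay's counts, and the median over 8632 transcripts was 0.10. Length cancels within a transcript only if the same region was counted in both assays, and the counted region is not given in the sources used here. Of all transcripts, 41.1% passed an adjusted p of 0.05 in either direction and 16.4% passed with fewer footprints than mRNA and 24.7% with more. Of the 7 members 3 passed, all 3 with fewer footprints. The log2 ratio was below 0 in 4 of the 7, against 45.7% of all transcripts.

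TUBA1B had the lowest ratio of the family, at -1.55 on the log2 scale (SE 0.299, 95% interval -2.19 to -0.91, adjusted p 0.001009 in edgeR's quasi-likelihood test with Benjamini-Hochberg adjustment). TUBB4B was at -1.15 (SE 0.216, -1.61 to -0.68, edgeR adjusted p 0.0008424). TUBA1C was at -1.04 (SE 0.247, -1.57 to -0.51, edgeR adjusted p 0.00401). For TUBA1B and TUBB4B all 6 footprint libraries lay below all 6 mRNA libraries, as they did for 6.09% of all transcripts, and in no member did all 6 lie above, as in 13.1% of all. TUBA1C overlapped at 0 min alone, where its lower mRNA replicate, at 105 CPM, was below one of its footprint replicates. The ratios of TUBA1B and TUBB4B were lower than those of all but 4.41% and 8.74% of the transcripts tested, and that of TUBA1C than all but 10.7%.

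The other 4 members lay near 0. TUBG1 was at -0.30 (SE 0.197, 95% interval -0.72 to 0.12), TUBB2B at 0.04 (SE 0.282, -0.57 to 0.64), TUBB at 0.06 (SE 0.278, -0.53 to 0.66) and TUBB6 at 0.15 (SE 0.246, -0.38 to 0.67). Their intervals leave room for a ratio about as far from 0 as -0.72. TUBB2A, too low in footprints for this fit, had 3 to 16 counts a library and is not ranked here.

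By time, the ratio of mean footprint to mean mRNA CPM of TUBA1B was 0.422 at 0 min, 0.333 at 60 min and 0.297 at 360 min. That of TUBB4B was 0.673, 0.333 and 0.427, and that of TUBA1C was 0.613, 0.424 and 0.455. That of TUBB was 1.45, 0.968 and 0.842, and that of TUBB6 was 1.59, 1.03 and 0.872. So the 3 low members were below 1 at every time, including 0 min, and the ratio of TUBB and TUBB6 was above 1 at 0 min. As the TE tests show, none of these differences between times passed the threshold.

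**Figure D3:**
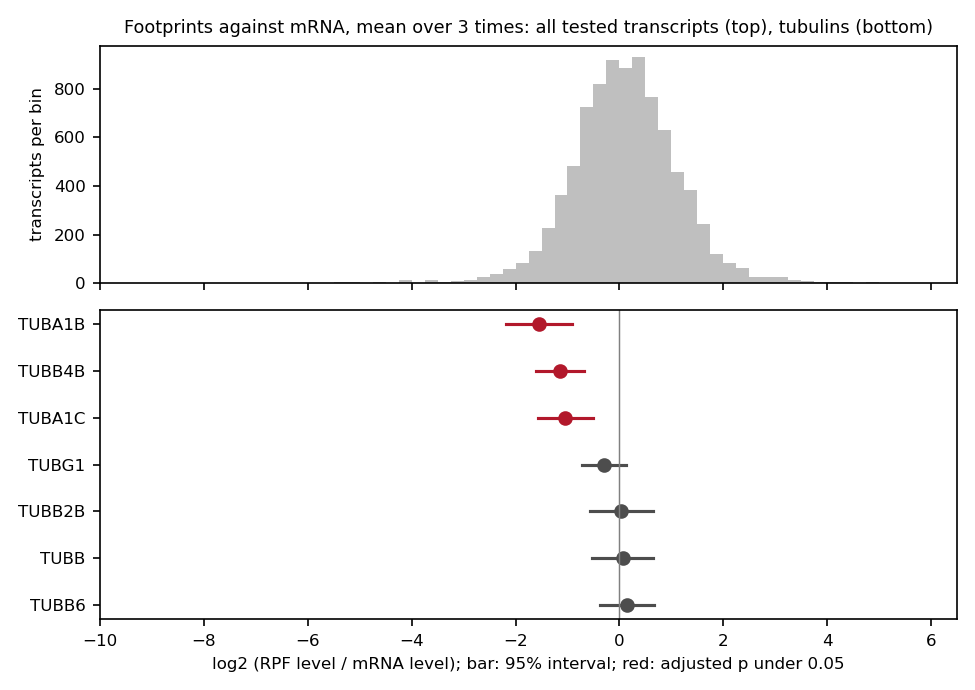
Log2 ratio of footprint to mRNA level, mean over the 3 times. The upper panel counts the 8632 tested transcripts in bins of the ratio, and the lower panel gives 7 tubulins with 95% intervals, in red where the adjusted p is under 0.05. TUBA1B (-1.55), TUBB4B (-1.15) and TUBA1C (-1.04) lie in the lower part of the distribution, and the other 4 members lie between -0.30 and 0.15.

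Members of one library can also be compared with each other, since the ratio of 2 counts in a library does not depend on its scaling. For each of 21 pairs of members the log2 count ratio was compared between the 6 footprint and 6 mRNA libraries by a two-sided exact permutation test within times, whose smallest possible p is 0.009259. These tests were added after the values were seen. After adjustment over the 21 pairs, 13 passed. Of these, 12 were all the pairs of 1 of the 3 low members with 1 of the other 4. Pairs of other transcripts were not tested, so the count has no share over all transcripts beside it. The ratio of TUBA1B to TUBB was 2.95-fold lower in footprints than in mRNA (exact permutation p 0.009259, adjusted 0.01768), and that of TUBB to TUBB4B was 2.30-fold higher (exact permutation p 0.009259, adjusted 0.01768). By these counts, TUBB and TUBB4B differed from each other in the ratio of footprints to mRNA. Differences between genes in the counted region or in how shared reads were assigned do not cancel here. They were not tested. TUBA1B and TUBB4B did not pass, with a log2 difference of -0.36 (exact permutation, adjusted p 0.2973), and TUBA1C and TUBB4B did not, with 0.14 (exact permutation, adjusted p 0.6374). TUBA1B was lower relative to TUBA1C by a log2 difference of -0.50 (exact permutation p 0.02778, adjusted 0.04488). These tests use the same counts as the ratios above and are not further support for them.

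Each member's share of the tubulin counts gives the same comparison on a scale of percent. The shares are of counts and were not divided by length, so they are compared between assays and not between genes. Over 6 libraries the share of TUBB ran from 48.8% to 62.5% in footprints (median 56.5%) and from 36.5% to 40.1% in mRNA (median 38.8%). TUBA1B ran from 10.2% to 15.9% (median 11.5%) in footprints and from 17.4% to 28.2% (median 27.0%) in mRNA. Neither range overlapped between assays. The shares of a library add up to a fixed total, so a lower share of some members raises that of the others. The footprint to mRNA ratio of TUBB itself was 0.06 on the log2 scale and did not pass.

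The alpha members together made up 15.8% to 22.3% of the tubulin footprints (median 17.5%) and 25.9% to 38.5% of the tubulin mRNA counts (median 35.1%). The beta members made up 73.0% to 79.0% (median 75%) and 56.1% to 68.7% (median 60.0%). These class shares, in which a read assigned to the wrong listed member of the same class still counts, did not overlap between assays either. Reads that were dropped, or assigned to a tubulin outside the listed members, would not count in them. Whether reads shared by paralogues were assigned in the same way to footprints of 25 to 35 nt and to mRNA fragments was not tested.

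In footprints TUBB4B took 15.0% (95% Clopper-Pearson interval 13.4 to 16.8) and 9.84% (8.38 to 11.5) of the tubulin counts at 0 min. At 60 min it took 7.98% (6.32 to 9.92) and 6.92% (5.45 to 8.63), and at 360 min 14.2% (11.8 to 16.9) and 12.2% (9.996 to 14.6). The 60 min shares were the 2 lowest of the 6, though the intervals of both overlapped that of the second 0 min replicate. In mRNA its share was 14.8% and 22.0% at 0 min, 15.1% and 13.2% at 60 min, and 15.8% and 21.4% at 360 min, so there the times overlapped. These intervals cover counting error only and leave out the spread between libraries. Reads made by PCR are not independent molecules, so the intervals may be too narrow even for counting error.

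**Figure D4:**
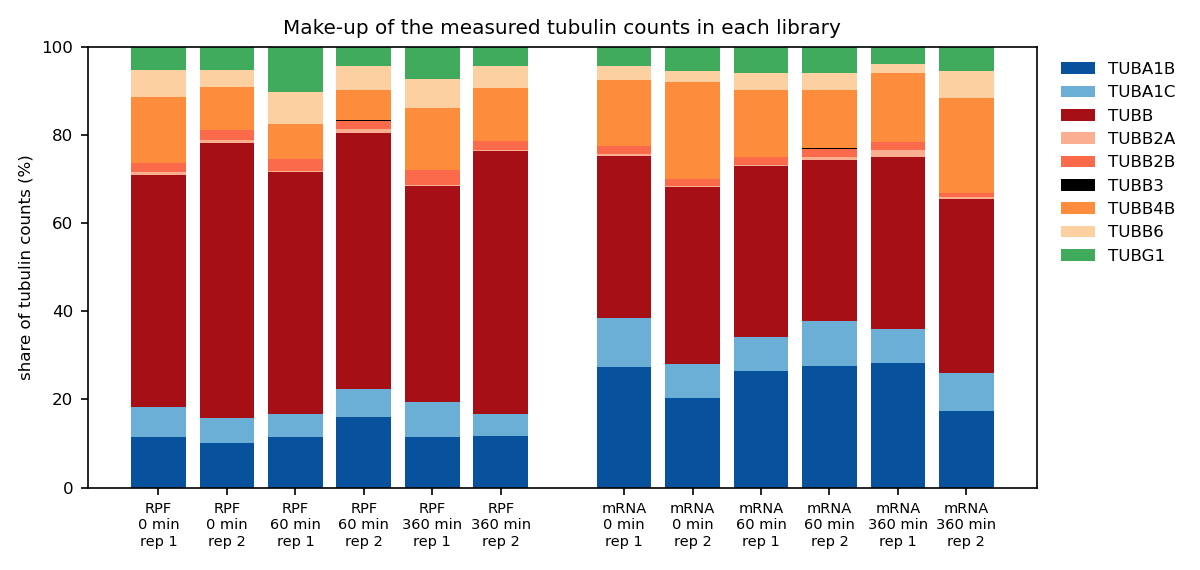
Share of the tubulin counts taken by each of 9 members, in percent, in the 6 footprint and 6 mRNA libraries. The dark red band of TUBB spans 48.8% to 62.5% of the footprint bars and 36.5% to 40.1% of the mRNA bars, and the 2 blue alpha bands are wider in mRNA.

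The sequence before the start site is shown for the 3 members whose footprints were lower than their mRNA. Sequence is also shown for TUBB, whose ratio did not pass, without its other start. Each is the 100 bases before a RefSeq start on GRCh38.p14, 5′ to 3′ on the gene's strand. Capitals mark TATAA, the core of the TATA box.

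TUBA1B, chr12:49131396-49131495, minus strand: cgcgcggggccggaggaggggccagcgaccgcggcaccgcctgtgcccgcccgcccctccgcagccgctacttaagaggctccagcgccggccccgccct
TUBA1C, chr12:49264982-49265081, plus strand: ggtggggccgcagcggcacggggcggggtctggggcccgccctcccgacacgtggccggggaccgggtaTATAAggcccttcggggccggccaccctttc
TUBB4B, chr9:137241187-137241286, plus strand: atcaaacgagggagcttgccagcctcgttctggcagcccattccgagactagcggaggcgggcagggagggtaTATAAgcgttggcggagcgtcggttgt
TUBB, chr6:30720252-30720351, plus strand: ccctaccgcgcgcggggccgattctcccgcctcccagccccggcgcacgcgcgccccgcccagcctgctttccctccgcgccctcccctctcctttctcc

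All 9 members matched the RefSeq table, with 14 start sites. TATAA began 31 bases before the TUBA1C start shown, which is 1 of 3 for that gene, and 27 bases before that of TUBB4B. On the sense strand, 40 to 15 bases before the start, these letters were found at 4 of the 14 start sites (TUBA1C, TUBB2A, TUBB3 and TUBB4B), against 4.06% of 35116 windows in the whole table. Anywhere in the 250 bases and on either strand they were found at the same number of starts, 4 of 14, against 18.9% of all windows. CCAAT on either strand was found within 250 bases before 9 of the 14 starts (7 of the 9 genes), against 32% of all windows. The windows of 2 TUBA1C starts overlap and share 1 CCAAT. Both sets of letters were chosen after the sequences were seen, and the start sites used in these cells were not measured. The TUBA1C start shown has a TATAA match and the TUBA1B start shown has none. Whether these letters bear on the footprint to mRNA ratio was not tested.

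Members differed in how far they moved together over the 12 libraries. With log2 levels centred within each assay, Pearson's r with the mean of the other members was 0.834 for TUBA1C, 0.70 for TUBB, 0.688 for TUBA1B, 0.489 for TUBB2B, 0.338 for TUBB4B, 0.256 for TUBB6 and 0.0557 for TUBG1. The alpha members and TUBB thus varied together from library to library more than TUBG1 did. Among 8725 other transcripts with a mean of at least 10 CPM in each assay, the 2 most like the mean of the 7 members were ENST00000356487 (r = 0.953, rho = 0.818) and ENST00000270776 (r = 0.876, rho = 0.601), which the files do not pair with a gene name. The 99th percentile over these transcripts was 0.681. These correlations are descriptions of 12 libraries that share depth and scaling.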

How the data were processed

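Footprints and mRNA were counted per Ensembl transcript in 12 libraries of HEK293T cells. The authors deposited raw counts per library, as whole numbers without normalization, per the file headers and values. Per the submitters' processing notes cutadapt 2.8, Bowtie 1.2.3 and STAR 2.7.10a were used, with no role given. The genome build, annotation, counted region, use of strand and treatment of multiply mapping reads are not given in the sources used here. Per the labels' protocols, footprints came from RNase I digestion of ribosome fractions, with a gel selection at 25 to 35 nt.

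Absent rows were read as a count of 0. The analysis used edgeR 4.0.16 in R 4.3.3: filterByExpr, TMM scaling within each assay, and the quasi-likelihood test fitted per assay to its 6 libraries, with a factor for time. TE was the interaction of assay and time over 12 libraries, for transcripts passing the filter in both assays. P-values were adjusted by Benjamini-Hochberg over all transcripts tested, with a threshold of 0.05. Each SE was derived from the log2 change and its F statistic. The procedure was tested on simulated data. A chi-square comparison of the 2 replicates of each assay and time found no duplicates among them (8.61 to 16.7 per degree of freedom). Libraries of different times or assays were not compared in this way.

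Groups came from the sample titles. Totals of 429026 to 1165740 counts set the precision. All members of the gene list are named. Those with a mean of at least 20 counts in an assay or an unadjusted p under 0.05 are given by library. Their log2 changes are printed for some of the comparisons. Members and lists were chosen with earlier results of these data known. The files hold identifiers alone, which no table used here pairs with symbols, so member symbols come from the given list and other genes of the pathway were not computed. Same-numbered replicates were not treated as pairs, since the labels do not say that a number marks a shared day. Alternatives were other scalings and filters, DESeq2 1.42.0, limma 3.58.1 voom for TE, the compared libraries alone, a replicate block and left-out libraries. Leaving out a library leaves 1 in that group, which was then assumed to vary like the other groups.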

Additional observations from a re-analysis of the deposited data

Results flagged for a closer look

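In 2 members both 360 min footprint replicates lay on one side of the 0 min replicates and both mRNA replicates on the other, so the 2 assays differed from 0 min in opposite directions. This holds with TMM scaling and not with library totals alone, where the mRNA values of both members overlapped (TUBG1 79.2 and 96.1 against 91.9 and 72.2 CPM, TUBB2A 32.6 and 10.1 against 10.5 and 4.17 CPM). The share of all transcripts with this pattern in both assays was not computed, so the 2 members are not set against a background. With TMM scaling 13.8% of tested transcripts lay below 0 min at 360 min in footprints and 19.8% above it in mRNA, without overlap. TUBB2A did not pass the filter in footprints and is not among the transcripts tested there. For TUBG1 the footprint values lay lower (78.3 and 65.4 against 84.8 and 87.5 CPM) and the mRNA values higher (95.4 and 101 against 89.9 and 75.7 CPM). Its TE log2 change was -0.55 (SE 0.486), with an adjusted p of 0.9122 in edgeR's quasi-likelihood test, so the difference between assays did not pass. For TUBB2A the footprint values were 4.19 and 5.61 CPM against 10.1 and 9.97, and the mRNA values 39.3 and 10.7 CPM against 10.3 and 4.37. These rest on 3 to 14 counts a library. Without the filter on low counts, its TE log2 change was -2.78 (SE 1.17), with an edgeR unadjusted p of 0.01993 and an adjusted p of 0.7026. The share of all transcripts with an unadjusted p under 0.05 in that fit was not computed. TUBB2A was picked for its opposite values, so this p is not further support for them.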

How the results depend on the processing

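A member without an adjusted p was counted as not passing. The number of members past the threshold was the same as reported in all 153 alternative values. It was 0 in each comparison of times and 3 in footprints against mRNA. The 3 were TUBA1B (-1.81 to -1.26 on the log2 scale), TUBA1C (-1.21 to -0.81) and TUBB4B (-1.23 to -0.91) in each of 25 settings, with highest adjusted p of 0.01355, 0.04337 and 0.02132. An uncalled log2 change was taken as the same if it moved by less than 1 SE. A called one was taken as the same if it stayed called in the same direction. By this rule 1051 of 1092 log2 changes of members were the same and 41 were not. Same-numbered replicates deviated together in footprints (r 0.345 to 0.362 over 4243 transcripts) and in mRNA at 60 and 360 min (0.403), and in opposite directions in mRNA at 0 and 60 min (-0.482) and 0 and 360 min (-0.152). With a replicate block 0 members passed between times; TUBB4B footprints at 60 min were -1.16 (edgeR unadjusted p 0.003576, adjusted p 0.9984). Counts of members without overlap also changed with library totals, an alternative added after the data were seen. With the crossed pairing of mRNA replicates 0 members passed at 60 and 360 min. Directions of uncalled changes often rested on 1 library. TUBA1B mRNA at 360 min was 0.27, and -0.37 without the first 360 min replicate. TUBB4B footprints at 360 min were -0.28, and 0.04 without the first 0 min RPF replicate. TUBB6 footprints at 60 min were -0.09, and 0.33 without that same 0 min replicate. The cause was not tested. With 2 libraries a group, SEs of members between times were 0.361 to 0.832 on the log2 scale, which limits what could be detected.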
